A study of Homo sapiens with 2 samples.

Results

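Readthrough genes are annotated genes whose transcripts run from a gene into its downstream neighbour, and their names join both parents with a hyphen. The members were selected on their names among the rows that the authors deposited, and the comparison of RNA recovered with a tagged protein (RIP) against input was named with them, so every ratio below is a description with no test. The rule took names of 2 symbols joined by a hyphen, without names of mitochondrial, HLA, U-RNA or antisense form. It took 42 of 13075 deposited genes. LINC-PINT is a long noncoding RNA and Telomerase-vert is a family name for the telomerase RNA, so these 2 do not join neighbouring genes and were set aside at 8.34 and 72.56 FPKM in the RIP and 4.65 and 76.63 in the input. The other 40 genes are the members described here.

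RNA polymerase II normally stops after the poly(A) signal of a gene is cleaved by the cleavage and polyadenylation factors, and the downstream RNA is then degraded. When cleavage is skipped, transcription can continue into the next gene on the same strand, and splicing can then join an exon of the upstream gene to an exon of the downstream one. Such joined RNAs often have a reading frame that ends early, which marks an RNA for nonsense-mediated decay (NMD), while others encode a fused protein.

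The study used HEK293, a human embryonic kidney cell line, at passage 15, transfected with FLAG-tagged TOP3B carrying R338W. TOP3B is a topoisomerase that acts on DNA and on RNA, and R338W is known for holding the enzyme on its nucleic acid. RNA-protein complexes were recovered from native lysate with a monoclonal anti-FLAG antibody for the RIP library, and the input library had no antibody step. Both libraries came from cells with the same mutant protein, each group held 1 library, and no library of untransfected cells, of wild-type TOP3B or of a control antibody is part of the comparison, so no replicate spread exists and binding to the antibody or beads was not tested.

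Values are FPKM, fragment numbers per length of transcript and per total of their own library. Where a pair of values stands without labels, the RIP comes first. The depth estimated from the steps between values was about 24700000 fragments for the RIP and about 15200000 for the input. TOP3B itself stood at 30666 FPKM in the RIP against 15062 in the input. Of 7 HEK293 markers 6 were in the table, at 8.3 to 678.56 FPKM, and of 7 kidney tubule markers only LRP2 was, at 5.49 FPKM in the RIP against 1.96 in the input. None of 3 liver or 3 blood cell markers was in the table.

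In GENCODE release 29, whose assembly GRCh38 is hg38, 38 of the 40 members had an entry, and 37 of these spanned both parents on 1 strand and held at least 1 transcript tagged as readthrough. IQCJ-SCHIP1 and ERCC6-PGBD3 had no entry, and the identifier of TMEM256-PLSCR3 belonged to PLSCR3 alone. In 35 members an exon of the upstream gene was spliced directly to an exon of the downstream gene, over introns of 480 to 132570 bases. The joining sequences of 6 members are shown because they are the part of the RNA that neither parent holds. Lower case is the end of the upstream exon, capitals are the start of the downstream exon, 30 bases of each, and both stretches are coding in their own parents.

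RPS10-NUDT3: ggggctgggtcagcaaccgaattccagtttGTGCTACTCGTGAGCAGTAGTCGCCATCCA
TSNAX-DISC1: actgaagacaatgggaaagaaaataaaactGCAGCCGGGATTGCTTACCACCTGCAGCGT
RBM14-RBM4: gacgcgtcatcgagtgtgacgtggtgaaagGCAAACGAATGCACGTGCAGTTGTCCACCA
C7orf55-LUC7L2: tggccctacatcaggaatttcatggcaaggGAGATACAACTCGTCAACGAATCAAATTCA
DNAJC25-GNG10: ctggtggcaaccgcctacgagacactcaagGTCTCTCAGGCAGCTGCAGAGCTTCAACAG
TGIF2-C20orf24: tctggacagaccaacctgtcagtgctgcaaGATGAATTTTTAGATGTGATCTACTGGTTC

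The RPS10-NUDT3 junction runs on the minus strand of chromosome 6 from base 34418369 to base 34341972, and its annotated protein of 291 residues begins as RPS10 and ends as NUDT3. The TSNAX-DISC1 junction runs from base 231561255 to base 231693826 of chromosome 1 on the plus strand, and the frame of this NMD transcript ends after 188 residues without reaching the end of DISC1. The RBM14-RBM4 junction lies at bases 66617057 and 66643450 of chromosome 11, the C7orf55-LUC7L2 junction at 139345621 and 139376062 of chromosome 7, the DNAJC25-GNG10 junction at 111631743 and 111666815 of chromosome 9, and the TGIF2-C20orf24 junction at 36578966 and 36607715 of chromosome 20, all on the plus strand. These 4 have proteins of 339, 458, 153 and 155 residues that start as the upstream and end as the downstream parent. Protein ends were compared only in transcripts with a direct junction, which 35 members had. Of these members, 14 had such a transcript with both ends, judged by the first and last 12 residues, and 12 more had only the upstream start.

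Most readthrough genes were low, and most, like most genes of the table, stood higher in the RIP. The median over the 40 members was 8.36 FPKM in the RIP against 5.76 in the input, against 16.94 and 15.69 over all deposited genes, and 30 of the 40 had the larger value in the RIP, as did 7682 of all 13075 genes. The measure was log2((RIP + 1)/(input + 1)), which shrinks the differences of low values. A floor of 5 FPKM in at least 1 library was set, which 29 members reached. Of these 29, 8 were at 2-fold or more above the input (27.6%) and 0 at 2-fold or more below it, where the background over all 11990 such genes was 4.9% higher and 2.5% lower. With a pseudocount of 5 FPKM in place of 1 the 8 became 2, ZFP91-CNTF and STX16-NPEPL1, with no background computed at that setting. The other 6 then had log2 ratios of 1.00 in CHKB-CPT1B, just under the limit, 0.93 in RPL36A-HNRNPH2, 0.91 in TVP23C-CDRT4, 0.86 in TSNAX-DISC1, 0.85 in RPS10-NUDT3 and 0.76 in PPT2-EGFL8. With the pseudocount of 1, the median log2 ratio was 0.62 over the 29 and 0.13 over all such genes. The contrast was named together with the members, so nothing is read from the members' share against the background.

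How members passed the floor bears on that count. Of the 29 members, 20 reached 5 FPKM in both libraries, 3 through the input alone and 6 through the RIP alone, and a member that passed only through the RIP had to be higher there. Of the 8 at 2-fold or more, 5 passed through the RIP alone and 3 in both libraries. With the floor set on the mean of both libraries, an alternative added after the data were seen, 7 of 27 members were higher by 2-fold or more and 0 lower, beside a background of 4.41% higher and 2.1% lower over 11421 genes. Among the 6943 genes whose larger value lay in the members' own range of 5.97 to 29.91 FPKM, 3.79% were higher in the RIP by 2-fold or more and 2.32% lower. All 40 members without a floor had a median of 0.37.

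**Figure D1:**
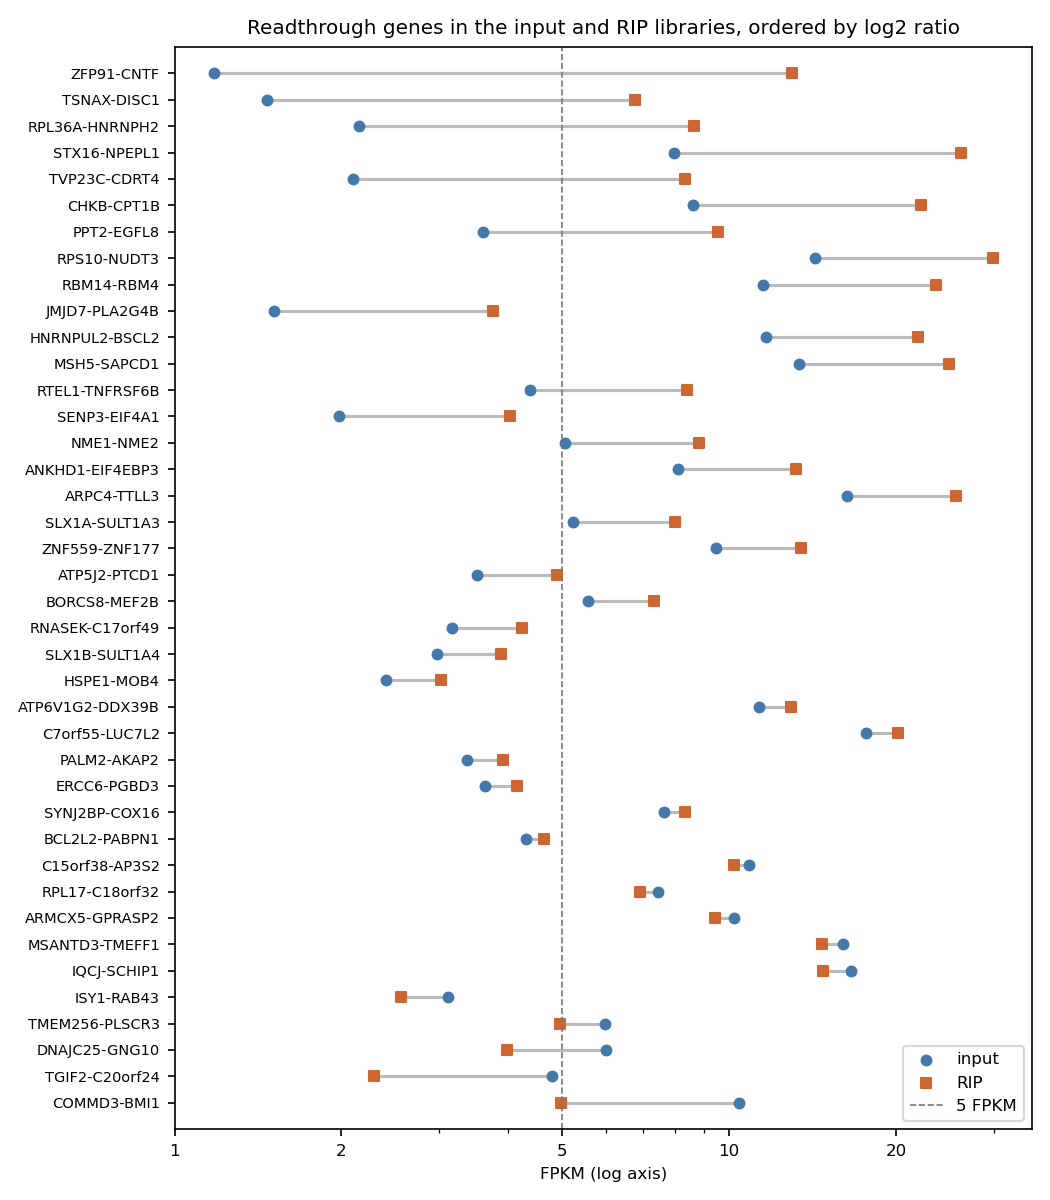
FPKM (log axis) of the 40 readthrough genes in the input (blue circles) and the RIP (orange squares), 1 library each, ordered from the lowest log2 ratio at the bottom to the highest at the top; the dashed line is the floor of 5 FPKM. The RIP value is the larger in the upper 30 genes, and ZFP91-CNTF has the widest gap, from 1.18 to 13 FPKM.

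ZFP91-CNTF joins ZFP91, a zinc finger ubiquitin ligase, to CNTF, the ciliary neurotrophic factor. It was at 13.0 FPKM in the RIP against 1.18 in the input, a log2 ratio of 2.68 or 6.42-fold. That was the highest ratio of the 10513 genes past the floor that GENCODE types as protein-coding, and rank 58 of all genes past it. ZFP91-CNTF passed the floor through the RIP alone, so it had to be higher there to be ranked. The 2 transcripts of ZFP91-CNTF are both typed as NMD, and no base of its exons is free of other genes' exons. The input value stands for about 33.9 fragments and the RIP value for about 606.

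ZFP91 moved the other way, at 19.07 FPKM in the RIP against 30.66 in the input (log2 -0.66). CNTF was not in the table. The sum of ZFP91-CNTF and ZFP91 was 32.1 FPKM in the RIP against 31.8 in the input, a log2 ratio of 0.01. Without CNTF, the summed FPKM was thus nearly equal in both libraries, with ZFP91-CNTF higher and ZFP91 lower in the RIP. The sum was added after the ratios were seen. ZFP91-CNTF has no exonic base of its own, so its level depends on how shared fragments were divided. Whether the RNAs themselves differed was not tested.

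TSNAX-DISC1 joins the partner of the RNA-binding protein translin to DISC1, a scaffold protein of neuronal development. It was at 6.77 FPKM in the RIP against 1.47 in the input, 3.15-fold on the pseudocount scale. All 8 of its transcripts are typed as NMD. TSNAX stood at 54.74 FPKM in the RIP against 52.96 in the input, and DISC1 at 9.72 and 7.11. Neither parent was 2-fold apart, and the readthrough share of the locus was 9.5% in the RIP and 2.39% in the input.

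RPL36A-HNRNPH2 and RPS10-NUDT3 each start in a ribosomal protein gene. RPL36A-HNRNPH2, which ends in a gene for a splicing regulator of the hnRNP H family, was at 8.65 FPKM in the RIP against 2.15 in the input (log2 1.62). Both parents were lower in the RIP, RPL36A at 1201.07 against 1694.27 FPKM (log2 -0.50) and HNRNPH2 at 20.95 against 41.19 (log2 -0.94). The readthrough gene held 0.703% of the locus in the RIP against 0.124% in the input, and its input value stands for about 13.2 fragments, the fewest of any member.

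RPS10-NUDT3, whose downstream parent is a Nudix hydrolase, was at 29.91 FPKM in the RIP against 14.3 in the input (log2 1.01). RPS10 was at 920.58 in the RIP against 1089.79 in the input, and NUDT3 at 7.39 and 10.86. The member was higher in the RIP while both parents were lower there, and its estimated level was above that of NUDT3 in both libraries. Only 0.306% of its exonic bases lie outside the exons of other genes, so that level rests on how shared fragments were divided. This member lies at the 2-fold limit: centred on the median of all genes its log2 ratio was 0.89.

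STX16-NPEPL1 and CHKB-CPT1B lie in loci where the parents were higher in the RIP too. STX16-NPEPL1, which joins a trans-Golgi SNARE protein gene to an aminopeptidase-like gene, was at 26.13 FPKM in the RIP against 7.96 in the input (log2 1.60). STX16 was at 83.27 and 52.31 and NPEPL1 at 18.75 and 8.92 FPKM, log2 0.66 and 0.99, so the readthrough gene exceeded both. In CHKB-CPT1B, which joins choline kinase beta to the muscle form of carnitine palmitoyltransferase, the member was at 22.19 FPKM in the RIP against 8.6 in the input (log2 1.27). CPT1B was at 73.47 and 29.13 (log2 1.30) and CHKB at 60.9 and 33.82 (log2 0.83). The member thus lay between its parents, and the whole locus summed to 156.6 FPKM in the RIP against 71.5 in the input.

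TVP23C-CDRT4, whose upstream parent encodes a Golgi membrane protein, was at 8.31 FPKM in the RIP against 2.1 in the input (log2 1.59). CDRT4 was at 2.93 in the RIP against 7.59 in the input (log2 -1.13), and TVP23C at 29.57 and 28.82 (log2 0.04). The 3 genes summed to 40.8 FPKM in the RIP against 38.5 in the input, a nearly equal total with a higher readthrough share of 20.4% against 5.45%.

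PPT2-EGFL8 joins a lysosomal thioesterase gene to a gene with EGF-like domains. It was at 9.54 FPKM in the RIP against 3.6 in the input (log2 1.20). PPT2 was at 11.84 and 16.11 FPKM and EGFL8 at 16.78 and 10.77, so the parents differed in direction. Just under the 2-fold limit stood RBM14-RBM4, which joins genes for RNA-binding proteins, at 23.58 FPKM in the RIP against 11.5 in the input (log2 0.98), with RBM4 at 165.35 and 92.04 and RBM14 at 35.17 and 31.36.

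At the other end, 8 of the 29 members were lower in the RIP, beside 4941 of all 11990 genes past the floor. COMMD3-BMI1, DNAJC25-GNG10 and TMEM256-PLSCR3 passed the floor through the input alone, so each had to be lower in the RIP. COMMD3-BMI1, which ends in the gene of a Polycomb repressive complex subunit, was the lowest at 4.97 FPKM in the RIP against 10.41 in the input (log2 -0.93, 0.523-fold). BMI1 was at 60.68 FPKM in the RIP against 45.02 in the input (log2 0.42), and COMMD3 at 12.07 and 15.56 (log2 -0.34). COMMD3-BMI1 was the only one of the 20 fully measured loci where the readthrough gene lay below both parents, with no exonic base of its own and about 54.8 and 71 fragments. It passed 2-fold with the median of all genes as centre, at a log2 ratio of -1.06.

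DNAJC25-GNG10, which joins a J-domain cochaperone gene to a G protein gamma subunit gene, was at 3.98 FPKM in the RIP against 5.99 in the input (log2 -0.49). Its parents lay on either side, GNG10 at 13.32 and 30.43 FPKM (log2 -1.13) and DNAJC25 at 8.25 and 6.75 (log2 0.26). TMEM256-PLSCR3, annotated as PLSCR3 alone, was at 4.95 and 5.97 FPKM (log2 -0.23). The other 5 lower members had log2 ratios from -0.16 to -0.08: IQCJ-SCHIP1, MSANTD3-TMEFF1, ARMCX5-GPRASP2, RPL17-C18orf32 and C15orf38-AP3S2. These 5 differed little between the libraries, and IQCJ-SCHIP1 at 14.78 and 16.6 FPKM and MSANTD3-TMEFF1 at 14.7 and 16.04 were among the most abundant members in the input.

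The 6 members with most input RNA ranged from a log2 ratio of -0.16 in IQCJ-SCHIP1 to 1.01 in RPS10-NUDT3. C7orf55-LUC7L2, which joins an ATP synthase assembly factor gene to a gene of a U1 snRNP-associated splicing factor, had the highest input value at 17.68 FPKM, with 20.15 in the RIP (log2 0.18). C7orf55 itself was at 7.72 in the RIP against 21.5 in the input (log2 -1.37), the only upstream parent at least 2-fold lower. ARPC4-TTLL3, which joins an Arp2/3 complex subunit gene to a tubulin glycylase gene, was at 25.69 and 16.33 FPKM (log2 0.62). MSH5-SAPCD1, whose upstream parent acts in meiotic recombination, was at 24.95 and 13.38 (log2 0.85), beside MSH5 at 99.23 and 55.2.

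Against both parents, the readthrough gene was most often the highest of the 3. Both parents were in the table for 29 loci, and in 20 of them all 3 genes reached 5 FPKM in at least 1 library. In 15 of these 20 the readthrough log2 ratio lay above both parents, in 4 between them and in 1 below both. RPL36A-HNRNPH2, TVP23C-CDRT4, TSNAX-DISC1 and PPT2-EGFL8 passed the floor through the RIP alone, so each had to be higher there. COMMD3-BMI1, DNAJC25-GNG10 and the parent CDRT4 passed through the input alone, so each had to be lower in the RIP. The difference from the parents' mean had a median of 0.43 on the log2 scale and ran from -0.98 in COMMD3-BMI1 to 2.33 in RPL36A-HNRNPH2, with 18 of 20 above 0. Against the upstream parent alone the median difference was 0.79, and against the downstream parent alone 0.51. The parents of 1 locus differed from each other by a median of 0.62 in either direction. Asking for more than 0.25 from the nearer parent left 9 above both, and without a floor the 29 loci gave 19 above, 8 between and 2 below.

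NME1-NME2, a fusion of genes for nucleoside diphosphate kinases, was at 8.84 FPKM in the RIP against 5.05 in the input (log2 0.70). NME1 was at 121.06 and 154.79 and NME2 at 380.75 and 490.57, log2 -0.35 and -0.37. Like RPL36A-HNRNPH2 and RPS10-NUDT3, the member was higher in the RIP while both abundant parents were lower there. A readthrough ratio above 0 with both parents below 0 was found at 5 of the 20 loci, and the opposite at 0. That count goes by sign alone and includes loci with small differences. It also includes RPL36A-HNRNPH2, which passed the floor through the RIP alone and so had to be above 0. At SYNJ2BP-COX16 the member had a log2 ratio of 0.11 and COX16 -0.002, and at C7orf55-LUC7L2 the member had 0.18 and LUC7L2 -0.10. Centred on the median of all genes, SYNJ2BP-COX16 was at -0.014, no longer above 0.

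Where the readthrough gene lay near its parents' mean, the parents diverged at RPL17-C18orf32 and SLX1A-SULT1A3 but not at C15orf38-AP3S2. RPL17-C18orf32, which starts in a ribosomal protein gene, was at 6.91 and 7.43 FPKM in the RIP and input, between RPL17 at 1508.35 and 965.98 (log2 0.64) and C18orf32 at 7.95 and 17.36 (log2 -1.04). C15orf38-AP3S2, which starts in the gene of the Arp2/3 inhibitor ARPIN, was at 10.19 and 10.84 FPKM, beside ARPIN at 12.03 and 13.25 and the adaptor subunit gene AP3S2 at 31.81 and 37.94. SLX1A-SULT1A3, which joins a structure-specific endonuclease subunit gene to a catecholamine sulfotransferase gene, was at 7.97 and 5.22 FPKM. Its parents were SLX1A at 11.3 and 15.76 (log2 -0.45) and SULT1A3 at 26.16 and 9.93 (log2 1.31). The SLX1A-SULT1A3 and SLX1B-SULT1A4 loci are near-identical copies, so how their fragments were divided is uncertain.

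**Figure D2:**
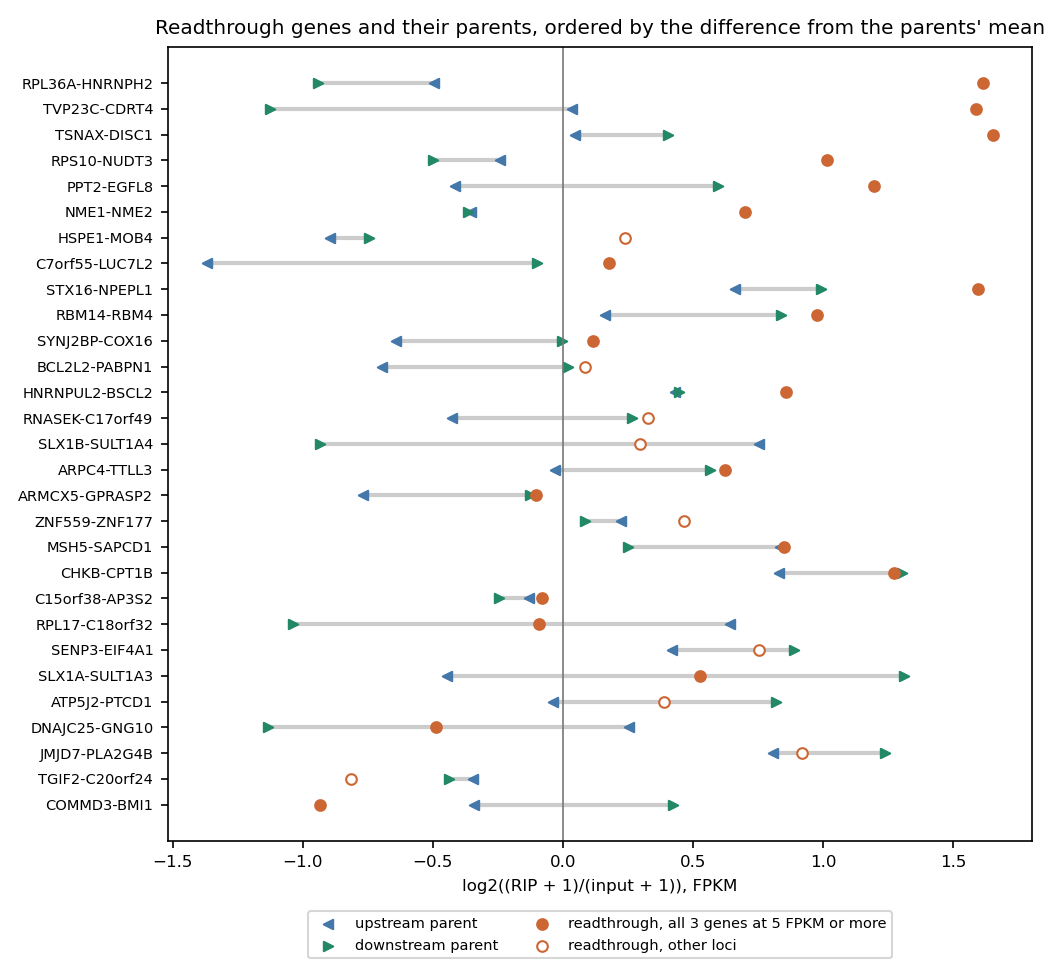
log2((RIP + 1)/(input + 1)) of the readthrough gene (orange circles, filled where all 3 genes reached 5 FPKM in a library), its upstream parent (blue) and its downstream parent (green) at the 29 loci with both parents in the table, ordered by the difference from the parents' mean. The circle lies to the right of both triangles at 19 loci, and to the left of both at COMMD3-BMI1 and TGIF2-C20orf24.

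The medians of the parents lay near 0, below the 0.13 of all genes. Of 36 upstream parents past the floor, 0 reached 2-fold in the direction of the RIP and 1 in that of the input, with a median log2 ratio of 0.00. Of 30 downstream parents 2 were higher and 3 lower, with a median of 0.03. Over all genes past the floor 4.9% were higher and 2.5% lower by 2-fold or more. The 2 higher were CPT1B and SULT1A3, at 26.16 FPKM in the RIP against 9.93 in the input. Loci were also summed over the readthrough gene and the parents in the table, a measure added after the ratios were seen. The 40 loci had a median log2 ratio of 0.13, and 2 sums were at least 2-fold apart, CHKB-CPT1B and JMJD7-PLA2G4B. At JMJD7-PLA2G4B all 3 genes were under the floor, with a sum of 10.6 FPKM in the RIP against 3.9 in the input.

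As a share of the locus, the readthrough gene was usually the smallest. Its FPKM divided by the sum of all 3 genes had a median of 11.8% for the input and 15.6% for the RIP over 29 loci. In the input the share ranged from 0.124% in RPL36A-HNRNPH2 to 39.1% in JMJD7-PLA2G4B, where all 3 genes were under the floor. The readthrough FPKM was below both parents at 26 loci in the input and at 19 in the RIP. The share was higher in the RIP at 25 of 29 loci, by at least 1.5 times at 9, and lower by that factor at 3, COMMD3-BMI1, TGIF2-C20orf24 and RPL17-C18orf32. PPT2-EGFL8 held 11.8% of its locus in the input and 25% in the RIP, and COMMD3-BMI1 held 14.7% and 6.39%.

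**Figure D3:**
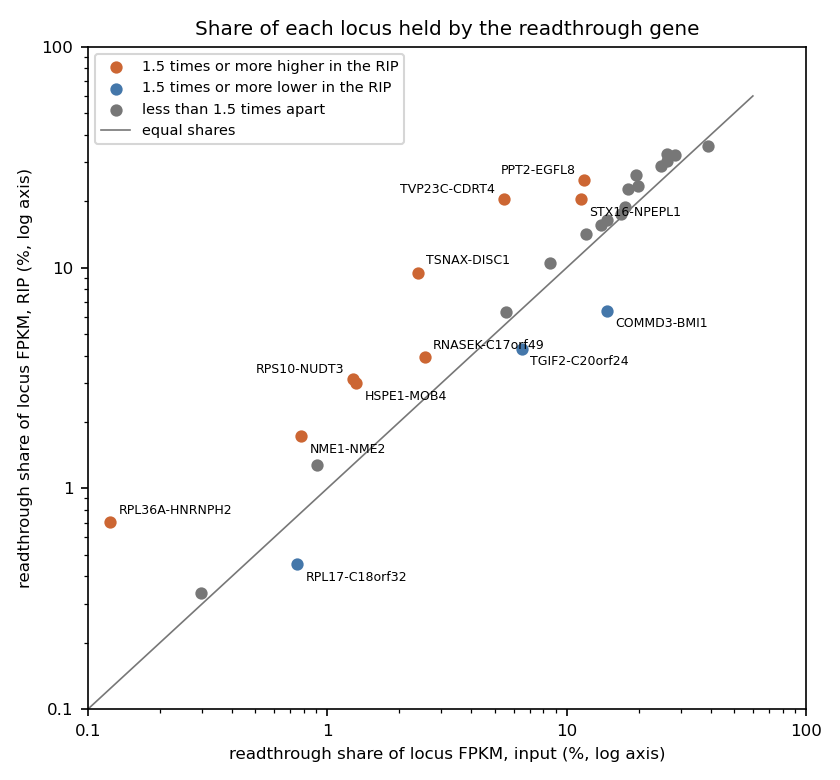
Share of the locus FPKM held by the readthrough gene in the RIP against the input (both in percent, log axes) at 29 loci, with the line of equal shares; colours mark shares at least 1.5 times apart. Points lie above the line at 25 loci, and TVP23C-CDRT4 and TSNAX-DISC1 lie far above it.

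These shares rest on how fragments were divided between overlapping genes. The median member had 2.19% of its exonic bases outside the exons of other genes, and 13 members had 0 such bases, among them ZFP91-CNTF, RPL36A-HNRNPH2, TVP23C-CDRT4 and COMMD3-BMI1. For those, only fragments over the joining splice, or the mix of exons covered, tell the readthrough RNA from its parents, and the authors' estimates carry that uncertainty, which FPKM does not show. RPS10-NUDT3 had 0.306% of its exonic bases to itself and CHKB-CPT1B 2.21%, while STX16-NPEPL1 had 18.9%, TSNAX-DISC1 21.7% and PPT2-EGFL8 45.3%. Across 27 members the share of own bases and the log2 ratio had a Pearson r of 0.054 and a Spearman rho of 0.22, a description over genes of the same libraries.

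Members without a protein-coding transcript had a higher median than those with one. Of 13 such members 11 passed the floor, 5 stood higher in the RIP by 2-fold or more and 0 lower, and the median was 0.86. Of 24 members with a coding transcript 16 passed, 3 were higher and 0 lower, and the median was 0.41. The background for both is the 4.9% higher and 2.5% lower of all genes past the floor. Through the RIP alone passed 4 of the 11 and 2 of the 16. The groups overlapped, from -0.10 to 2.68 and from -0.93 to 1.62. An NMD transcript was annotated in 10 of the 13 and 10 of the 24. The longest transcript had a median of 3519 bases without and 1945 with a coding transcript, and over 27 members the log2 of that length and the ratio had an r of 0.30 and a rho of 0.47, so length and coding state moved together. Against both parents the medians were closer, 0.38 over 8 loci and 0.46 over 12.

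The distance between the parents showed no such relation. The gap had a median of 2784 bases over 37 loci and ran from -17689, an overlap, in ATP5J2-PTCD1 to 108016 in ARMCX5-GPRASP2. Over 27 members, the r against the ratio was -0.05 and the rho 0.02.

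Readthrough RNAs also occur under other names, mostly clone names. In the table were 70 further genes whose every GENCODE 29 transcript is tagged as readthrough. Of these 53 passed the floor, and 19 stood higher in the RIP by 2-fold or more (35.8%) and 0 lower, with a median log2 ratio of 0.62, the same direction as the members and again beside the background of 4.9% and 2.5%. In this group 23 passed through the RIP alone, some of the 19 among them, so each of these had to be higher there. Through the input alone passed 3. RP11-144G6.12 was at 83.09 FPKM in the RIP against 22.99 in the input, and RP11-111K18.1 at 6.3 and 12.

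The genes of the factors that end transcripts had a median between those of all genes and of the members. All 41 listed genes for 3′ end cleavage, polyadenylation and termination were in the table, 1 stood higher in the RIP by 2-fold or more and 0 lower, beside 4.9% and 2.5% of all genes past the floor. Their median log2 ratio was 0.27, against 0.13 over all genes. The highest was ZFC3H1, of the nuclear poly(A) RNA decay pathway, at 60.03 FPKM in the RIP against 23.21 in the input. CPSF1, a subunit of the cleavage and polyadenylation complex, followed at 73.37 and 39.22, and CPSF6 of cleavage factor I at 98.76 and 53.71. The lowest were CSTF2T at 11.08 and 15.3, PPP1CB at 43.65 and 52.7 and CPSF2 at 29.91 and 35.45.

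**Figure D4:**
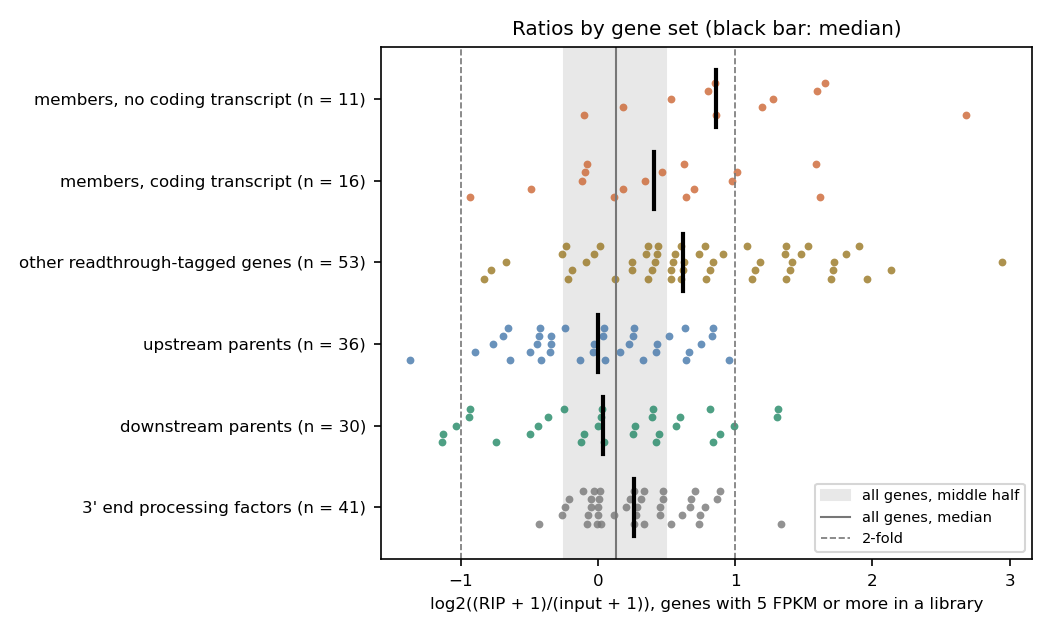
log2((RIP + 1)/(input + 1)) of single genes with at least 5 FPKM in a library, by set, with the median as a black bar, the range between the quartiles of all genes in grey and dashed lines at 2-fold. Members without a coding transcript have a median of 0.86 and the parents medians of 0.00 and 0.03.

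The 11 members under the floor reached at most 4.9 FPKM, and 9 of them were higher in the RIP, with log2 ratios from -0.82 to 0.92. TGIF2-C20orf24, which starts in a homeobox repressor gene, was at 2.29 in the RIP against 4.79 in the input, the lowest of them. BCL2L2-PABPN1, which joins an apoptosis inhibitor gene to the nuclear poly(A)-binding protein gene, was at 4.63 and 4.31. ERCC6-PGBD3 was at 4.15 and 3.63, ATP5J2-PTCD1 at 4.9 and 3.51, PALM2-AKAP2 at 3.91 and 3.37 and RNASEK-C17orf49 at 4.23 and 3.17. Differences of this size at such levels were not resolved with 1 library in each group.

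At 11 loci only 1 parent was in the table, and the readthrough gene lay above it in 5. Besides ZFP91-CNTF these were the loci of TMEM256-PLSCR3, ANKHD1-EIF4EBP3, BORCS8-MEF2B and PALM2-AKAP2, with differences of 0.08 to 0.19. The identifier of TMEM256-PLSCR3 belongs to PLSCR3 alone, so that comparison sets 1 parent against the other. At the other 6 it lay below its parent, by log2 differences of -0.48 in ERCC6-PGBD3, -0.45 in MSANTD3-TMEFF1, -0.25 in ISY1-RAB43, -0.22 in ATP6V1G2-DDX39B, -0.20 in IQCJ-SCHIP1 and -0.15 in RTEL1-TNFRSF6B. ANKHD1-EIF4EBP3, which ends in the gene of an inhibitor of translation initiation, was at 13.19 and 8.1 FPKM, beside ANKHD1 at 107.03 and 74.48. ATP6V1G2-DDX39B was at 12.92 and 11.3 FPKM, beside DDX39B, an RNA helicase of mRNA export, at 499.28 and 379.79. BORCS8-MEF2B was at 7.32 and 5.56 FPKM beside BORCS8, of a lysosome-positioning complex, at 15.35 and 12.61.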

How the data were processed

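Per the submitters' processing notes, reads were handled with cutadapt 1.18, Trimmomatic 0.3, STAR 2.6.1 and RSEM 1.2.31 on hg38. The annotation release, settings and any filter of low values were not given in the sources used here. A table was deposited by the authors, with values taken here as FPKM, since the unit is not named and the sums are 1090243 in the RIP and 1512049 in the input. RSEM divides fragments shared by overlapping genes by an estimate. Depth came from the steps of low values: within 0.15 of a whole fragment fell 65% of 206 RIP genes and 59.5% of 341 input genes, where 30% would if spread evenly. Fragment numbers use median transcript lengths and are approximate. Ratios used a pseudocount of 1 FPKM and a floor of 5 FPKM. No test was possible with 1 library per group.

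Members, lists and comparisons were chosen with earlier results of these data known. Named were members at least 2-fold apart, the 8 highest and lowest ratios, the 6 highest input values, and the 6 highest and lowest differences from the parents; under the floor or with 1 parent, up to 6 by input; of the 3′ end list, 3 at each end. RBM14-RBM4, JMJD7-PLA2G4B and the clone-named genes were named after their values were seen. Parents were matched by symbol, 1 through an older RefSeq name. In 36 rows with names split over columns, symbols were not used. Junctions, classes and exons came from GENCODE 29, matched by identifier for 12983 genes (99.3%). Python 3.11.15, numpy 2.4.6, scipy 1.17.1 and matplotlib 3.10.9 were used, and the ratio step was tested on simulated data.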

Additional observations from a re-analysis of the deposited data

How the results depend on the processing

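No paired analysis was possible because there was 1 library per group, and for the same reason no library could be left out; count normalizations were not run on FPKM. The members' median stayed above 0 under every setting tried and ranged from 0.37 without a floor to 0.92 at a floor of 20 FPKM. The highest input value of any member was 17.68 FPKM, in C7orf55-LUC7L2. Every member past the floor of 20 thus passed through the RIP alone and had to be higher there, so the median at that setting could not fall below 0. The 8 members at least 2-fold higher became 15 at a 1.5-fold limit, 1 at a 4-fold limit, 2 with a pseudocount of 5 and 3 at a floor of 20. The 0 lower members became 1 at a 1.5-fold limit, with a pseudocount of 0.1, centred on the median gene, and rescaled without abundant RNA classes. Shares over all genes were not computed for these recounts or for those of the parents below, so none has a background beside it. The 15 loci above both parents became 3 at a floor of 20 and 9 when more than 0.25 from the nearer parent was asked. Those between, 4, became 8 without a floor, 8 at a floor of 1, 1 at a floor of 20 and 10 with the 0.25 limit, and the 1 below both became 2 without a floor, 2 at a floor of 1 and 0 at a floor of 20. Upstream parents at least 2-fold higher became 1 with a pseudocount of 0.1, and downstream parents at least 2-fold lower, 3, became 0 with a pseudocount of 5 and 1 at a floor of 20. Centring moved ratios down by the median of all genes, 0.13, and rescaling moved them by -0.16. The parents' medians were not recomputed on those scales, and shifts of this size exceed their distance from 0. A smaller count at a floor of 20 follows from fewer members tested, and the cause of the other changes was not tested.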
